A study of Mus musculus with 8 samples.

Results

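Hematopoietic stem cells carrying an inducible Mx1-Cre deletion of Huwe1 were compared with wild type stem cells by RNA-seq. The comparison rests on 6 of the 8 libraries of the series, assigned by their labels: 3 wild type and 3 labelled Huwe1 knockout (Mx1-Cre). The remaining 2 libraries, labelled Huwe1 knockout (Vav-Cre), entered the same fit and are used only where their level bears on an Mx1-Cre result. In all groups, cells were taken from mouse bone marrow without culture and gated as Lin-Sca+Kit+CD48-CD150+, with lysis in Trizol, and the labels record no treatment. They name no inducing agent for Mx1-Cre, give no strain, age or time since deletion, and do not say whether the wild type mice carried a Cre or were induced. Separate animals are not named either, so each p-value rests on the spread among these libraries, which may be technical.

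HUWE1 is a very large ubiquitin ligase of the HECT class, which transfers ubiquitin to its targets through a cysteine in its catalytic domain. Its reported substrates include the transcription factors MYC, N-MYC and p53 and the survival protein MCL1. Mx1-Cre places the recombinase under an interferon-responsive promoter, so deletion is switched on in the adult, in stem cells and in other interferon-responsive cells of the marrow and elsewhere. Vav-Cre is on in blood cells from their formation. Stem cells of this sort phenotype are mostly quiescent, are held in the marrow niche by adhesion receptors and by cytokines, and lose specific transcripts as they begin to divide and differentiate.

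Levels are given as CPM, a gene's count relative to the library's size after TMM scaling, in the order of replicates 1, 2 and 3, and differences are fitted log2 fold changes of Mx1-Cre over wild type with their standard error (SE). A gene is called, and said to rise or fall, at an edgeR quasi-likelihood adjusted p under 0.05. Total counts were 28704010 to 33202926 per library. The spread between libraries was wider in the Mx1-Cre group, with a biological coefficient of variation of 30.4% against 21.1% in wild type. At the lowest common total, 15319 to 15513 genes were detected in wild type libraries and 14598 to 15023 in Mx1-Cre libraries, ranges that do not overlap. In sorted bulk cells, fewer cells of a type and less RNA per cell cannot be told apart.

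Huwe1 itself was measured at 434, 398 and 433 CPM in wild type and at 444, 399 and 412 CPM in the Mx1-Cre libraries. The ranges overlap, and the log2 fold change was -0.01 ± 0.11 (adjusted p = 0.979). A count over a whole gene includes transcripts that lack only the deleted exons, so this value does not test the label. The Mx1-Cre libraries are therefore named by their label throughout.

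Most of what changed in the Mx1-Cre libraries was a loss of transcripts. Of 14086 genes tested, 351 were called (2.49%). Of these, 55 rose (0.39%) and 296 fell (2.1%). The falls were also the larger changes, with a fold of at least 4 in 113 genes that fell and in 10 that rose. The median log2 fold change was -1.65 over the genes that fell and 0.916 over those that rose, against 0.00986 over all tested genes. Added up, the genes that fell took 11630 to 11756 CPM in each wild type library and 4502 to 5305 CPM in each Mx1-Cre library. The genes that rose took 5016 to 5322 CPM and 8463 to 8823 CPM. Both sets were picked by this same difference in these libraries, so the separation of the sums follows from the choice of genes.

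**Figure D1:**
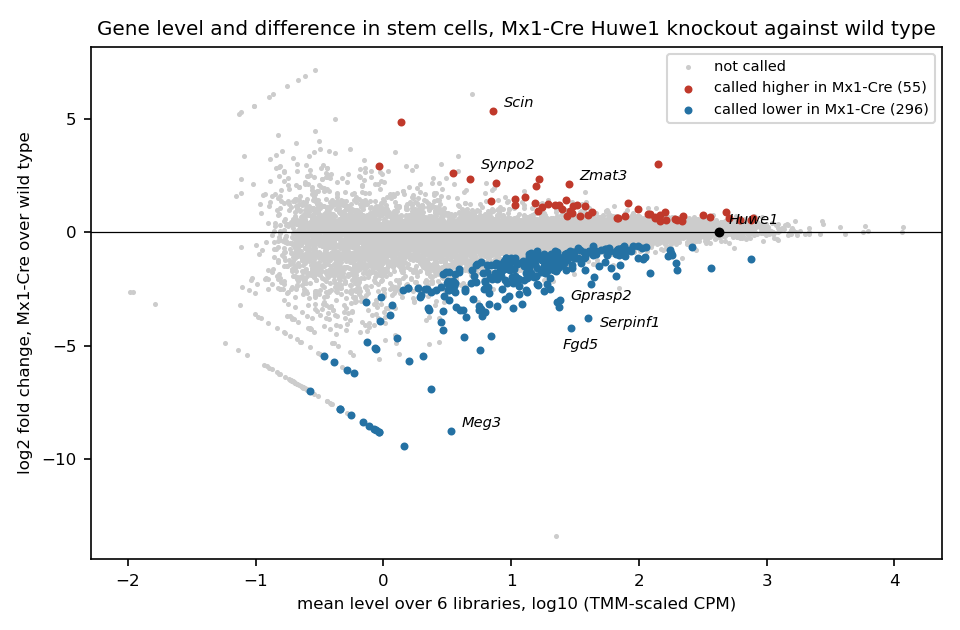
Each point is a tested gene, with its mean level over the 6 wild type and Mx1-Cre libraries on the horizontal axis (log10 CPM) and its fitted log2 fold change, Mx1-Cre over wild type, on the vertical axis. The 296 genes that fell reach far larger differences than the 55 that rose, and Huwe1 lies at 0; 1 tested gene without a count in these 6 libraries is not drawn.

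The direction depended on expression level. When the tested genes were split into 3 equal bands by mean level, 125 of the lowest band fell and 7 rose. In the middle band 137 fell and 23 rose, and in the highest band 34 fell and 25 rose. The split of the calls also moved with the tool and the scaling, from 84.3% lower here to 72.3% with DESeq2, 62.1% with limma-voom and 91.7% when only library totals were used for scaling. DESeq2 called 288 of 15044 tested genes higher and 752 lower. With limma-voom, 687 of 14086 were called higher and 1128 lower. The counts of these tools in the gene lists below are to be read beside these totals. The count of calls moved with single libraries. It was 58 without wild type 2, 61 without wild type 3, 98 without Mx1-Cre 1, 122 without wild type 1, 173 without Mx1-Cre 3 and 557 or 565 without either Vav-Cre library. A core of 45 genes, 5 of which rose, stayed called whichever of the 8 libraries was left out. Calls outside that core are marked as such below.

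Fgd5, a guanine nucleotide exchange factor used as a marker of hematopoietic stem cells, was among the most reduced genes of moderate level. It was measured at 50.01, 59.1 and 59.4 CPM in wild type and at 3.24, 4.06 and 1.70 CPM in the Mx1-Cre libraries. The groups are far apart, with a log2 fold change of -4.22 ± 0.30 (adjusted p = 0.000264), and the call held without any single library (adjusted p up to 0.00405). The 2 Vav-Cre libraries stood between them at 17.2 and 15.2 CPM, and the difference between the Cre lines passed the test (Vav-Cre minus Mx1-Cre 2.43 ± 0.30 log2, adjusted p = 0.0183). Over all genes, 24 passed that test of the difference (0.17%), 16 of them higher and 8 lower in Vav-Cre libraries.

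Fgd5 belonged to a list of 32 stem cell identity genes, of which 6 fell and 0 rose. The shares over all tested genes were 2.1% lower and 0.39% higher. The median of the list was -0.292, and 23 of its 32 members had a negative log2 fold change. Its summed levels overlapped, at 9790 to 10500 CPM in wild type and 7860 to 10200 CPM in Mx1-Cre libraries. Without an adjustment for multiple tests, 17 members were lower at p under 0.05, against 10.5% of all tested genes. Fgd5 alone kept its call when wild type 2, wild type 3 or Mx1-Cre 1 was left out.

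Other members of the list that fell lost less of their level than Fgd5 did. Procr, which encodes the endothelial protein C receptor EPCR, stood at 58.4, 70.6 and 62.2 CPM and at 37.1, 40.4 and 33.0 CPM (-0.79 ± 0.15, adjusted p = 0.0272). Prdm16, a zinc finger regulator needed for stem cell maintenance, stood at 53.1, 48.9 and 48.9 CPM and at 30.9, 28.2 and 21.0 CPM (-0.91 ± 0.18, adjusted p = 0.0267). In neither of these genes do the groups overlap, which holds for all 351 called genes and for 25.6% of all tested genes. Esam, a junctional adhesion molecule used to sort stem cells, fell from 200 to 259 CPM to 108 to 140 CPM (-0.79 ± 0.15, adjusted p = 0.0272). Sult1a1, a sulfotransferase, fell from 33.6 to 35.2 CPM to 4.83 to 8.49 CPM (-2.51 ± 0.52, adjusted p = 0.0354). These 4 calls were lost when any one of several libraries was left out, with the highest adjusted p at 0.141 for Procr and 0.111 for Prdm16 (both without wild type 2), 0.0888 for Esam (without wild type 1) and 0.139 for Sult1a1 (without Mx1-Cre 1).

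Other defining genes of the stem cell state did not pass the test. Hlf, a transcription factor of the most primitive cells, was at 704, 736 and 826 CPM in wild type and at 575, 784 and 509 CPM in Mx1-Cre libraries, so that the ranges overlap (adjusted p = 0.437). Mecom, another such factor, was at 212 to 246 CPM and at 136 to 197 CPM, without overlap (-0.51 ± 0.16, adjusted p = 0.127). Among the sort markers, Slamf1, which encodes CD150, was at 62.8 to 68.4 CPM and at 49.0 to 58.1 CPM (-0.31 ± 0.13, adjusted p = 0.254). Cd48 was at 14.8 to 16.2 CPM and at 19.2 to 22.5 CPM (0.48 ± 0.17, adjusted p = 0.187). Ly6a, which encodes Sca-1, was at 75.5 to 96.0 CPM and at 42.4 to 60.7 CPM (-0.75 ± 0.32, adjusted p = 0.268). Kit ranged from 1246 to 1846 CPM in wild type and from 982 to 2344 CPM in Mx1-Cre libraries, with full overlap.

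**Figure D2:**
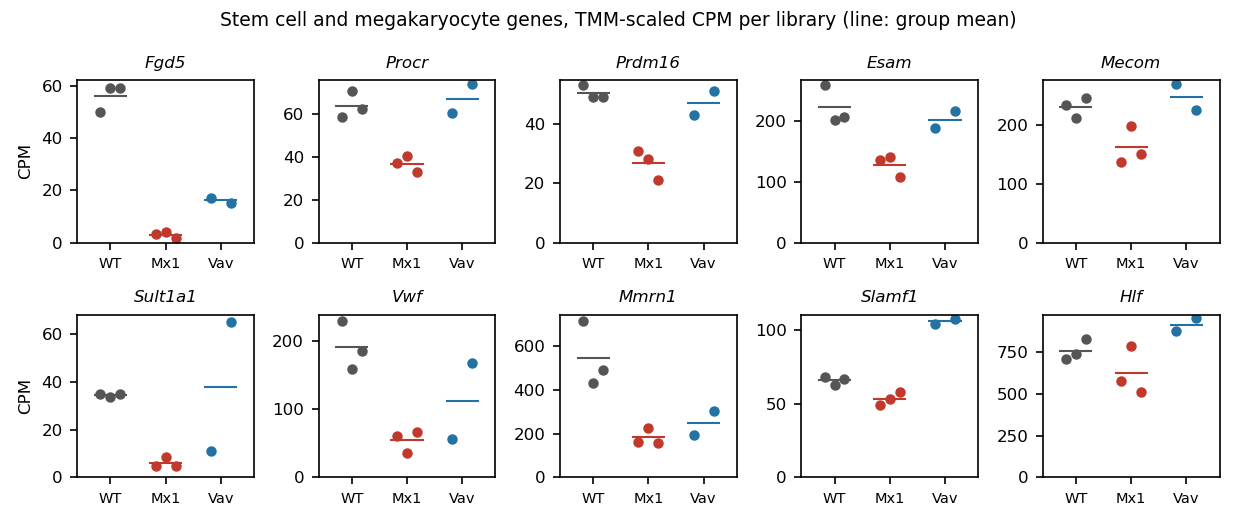
Each panel shows 1 gene, with its level in CPM on a vertical axis that starts at 0 and the wild type (WT), Mx1-Cre (Mx1) and Vav-Cre (Vav) libraries as points, the line being the group mean. The Mx1-Cre points lie below all wild type points for every gene except Hlf. Both Vav-Cre points lie above every Mx1-Cre point for Fgd5, Procr, Prdm16, Esam, Mecom, Slamf1 and Hlf.

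Genes of the megakaryocyte and platelet lineage, some of which mark platelet-primed stem cells, fell in 3 of 32 tested cases and rose in 0. Beside this, 2.1% of all tested genes fell and 0.39% rose. The members that fell included Mmrn1 and Vwf. Mmrn1, which encodes the platelet protein multimerin, fell from 717, 431 and 494 CPM to 164, 228 and 159 CPM (-1.58 ± 0.24, adjusted p = 0.0111). Vwf, the von Willebrand factor gene, fell from 229, 159 and 186 CPM to 60.7, 35.5 and 67.0 CPM (-1.81 ± 0.36, adjusted p = 0.0297). The groups do not overlap in either gene, as in all 351 called genes. Leaving out Mx1-Cre 1 ended the call of Mmrn1 (adjusted p = 0.0612), and leaving out any of the 6 libraries compared ended that of Vwf (up to 0.0988). The list's median was -0.0988 with 14 members positive, and Pf4, a defining platelet gene, overlapped between groups at 241 to 395 CPM and at 140 to 396 CPM.

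Of 42 tested receptors through which stem cells receive cytokine and growth factor signals, 7 fell and 0 rose, beside 2.1% lower and 0.39% higher over all tested genes. The median of the list was -0.45, and its summed levels overlapped at 4150 to 4930 CPM in wild type and 2700 to 4590 CPM in Mx1-Cre libraries. Ephb4, the receptor of ephrin-B2, was at 9.08, 15.1 and 12.3 CPM in wild type and at 1.39, 0.80 and 1.81 CPM in Mx1-Cre libraries (-3.19 ± 0.37, adjusted p = 0.00449). Csf3r, the granulocyte colony-stimulating factor receptor gene, was at 94.2, 58.5 and 57.1 CPM and at 15.9, 16.9 and 9.72 CPM (-2.30 ± 0.35, adjusted p = 0.0112). Both genes belong to the core of calls that held without any single library. Fgfr1, a fibroblast growth factor receptor, fell from 22.1 to 31.4 CPM to 4.90 to 9.72 CPM (-1.76 ± 0.27, adjusted p = 0.0114, and 0.0595 without wild type 3). Il27ra, Met and Il6st, the shared chain of interleukin 6 family receptors, fell with log2 fold changes of -0.96 ± 0.17, -2.52 ± 0.46 and -0.94 ± 0.19. Their calls depended on single libraries, with an adjusted p of up to 0.083, 0.092 and 0.146 without wild type 3. Without that library, 2 of the 42 receptors were called.

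Of the 46 adhesion and niche genes tested, 4 fell (Itga9, Jam3, Esam and Cd63) and 1 rose, beside 2.1% lower and 0.39% higher over all tested genes. Of the calls over all genes, 84.3% were falls. Itga9, the integrin alpha 9 chain, fell from 8.77 to 12.6 CPM to 0.83 to 1.17 CPM (-3.40 ± 0.38, adjusted p = 0.0041). Jam3, a junctional adhesion molecule, fell from 20.4 to 37.3 CPM to 3.51 to 6.42 CPM (-2.58 ± 0.30, adjusted p = 0.00449). The calls of Itga9 and Jam3 held without any single library, while that of Cd63, a tetraspanin, was lost without any of the 6 libraries compared (adjusted p up to 0.20).

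Of 47 tested genes of matrix proteins and their proteases and inhibitors, 7 fell and 0 rose, beside 2.1% lower over all tested genes, and 40 were not called. The median was -0.178, with 19 members positive, and the summed levels of the list overlapped between groups. DESeq2 and limma-voom each called 3 members higher, and 10 and 9 lower. Their totals over all genes were 288 higher and 752 lower of 15044, and 687 higher and 1128 lower of 14086. Serpinf1, which encodes the secreted pigment epithelium-derived factor, was at 58.1, 85.7 and 78.3 CPM in wild type and at 6.73, 4.28 and 4.90 CPM in Mx1-Cre libraries (-3.80 ± 0.28, adjusted p = 0.000315). Vav-Cre libraries had 13.3 and 23.4 CPM, and the lines differed (1.79 ± 0.29 log2, adjusted p = 0.0459). Klk8, a secreted serine protease, fell from 34.8 to 49.3 CPM to 3.51 to 4.82 CPM (-3.29 ± 0.32, adjusted p = 0.002). Bgn, the matrix proteoglycan biglycan, fell from 65.2 to 73.7 CPM to 16.2 to 20.3 CPM (-1.97 ± 0.20, adjusted p = 0.00238). Tinagl1, a matrix protein related to cathepsins, fell by 3.19 ± 0.44 log2 (adjusted p = 0.00767). These 4 calls held without any single library. Mmp2, the gelatinase A gene, and Timp2 and Timp3, which encode inhibitors of such metalloproteinases, fell by 2.52 ± 0.40, 0.94 ± 0.17 and 1.01 ± 0.21 log2, and each was lost without some single library (adjusted p up to 0.0669 without wild type 2, and 0.102 and 0.124 without wild type 3).

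Among 57 genes of the Notch, Wnt, TGF-beta and BMP pathways, 5 fell and 0 rose, beside 2.1% and 0.39% of all tested genes. They were Bmp1, a protease that frees BMP and TGF-beta ligands (-1.70 ± 0.25, adjusted p = 0.0103), Fzd3, a Wnt receptor (-1.56 ± 0.25, adjusted p = 0.0127), Smad6, an inhibitor of BMP signalling (-2.48 ± 0.46, adjusted p = 0.0233), Id2, a BMP target and inhibitor of helix-loop-helix factors (-1.61 ± 0.31, adjusted p = 0.0272), and Notch1 (-0.73 ± 0.16, adjusted p = 0.0395). Notch1 was at 61.5, 70.1 and 71.7 CPM in wild type and at 47.0, 34.6 and 40.7 CPM in Mx1-Cre libraries. None of the 5 stayed called without wild type 3, a fit that kept 60 of all 351 calls.

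The genes that restrain the cell cycle split. Of 28 inhibitors of cyclin-dependent kinases (CDK) and other restraints of growth, 3 fell and 1 rose, beside 2.1% and 0.39% of all tested genes. Cdkn1c encodes p57, the CDK inhibitor most tied to stem cell quiescence, and was at 10.4, 17.8 and 19.8 CPM in wild type and at 5.71, 4.57 and 5.11 CPM in Mx1-Cre libraries (-1.64 ± 0.27, adjusted p = 0.0151). Ndn encodes necdin, a growth suppressor that is also made under p53, and was at 21.6, 27.9 and 31.5 CPM and at 4.82, 6.93 and 4.33 CPM (-2.33 ± 0.27, adjusted p = 0.00442). Gfi1, a repressor that limits stem cell division, was at 12.7 to 16.4 CPM and at 5.62 to 7.38 CPM (-1.15 ± 0.23, adjusted p = 0.0295). Cdkn1a, which encodes p21, went the other way, from 3.17, 1.84 and 3.39 CPM to 9.57, 6.35 and 21.5 CPM (2.15 ± 0.45, adjusted p = 0.0352). The value of Mx1-Cre 3 is well above the rest of its group, and without that library the call was lost (adjusted p = 0.0837). Ndn held its call without any single library, while Cdkn1c, Gfi1 and Cdkn1a reached an adjusted p of 0.0867, 0.15 and 0.159 without wild type 2. Cdkn1b and Cdkn2c, which encode p27 and p18, were at 33.5 to 53.6 and 5.12 to 5.51 CPM in wild type and at 33.2 to 64.2 and 7.65 to 12.2 CPM in Mx1-Cre libraries, and neither was called (adjusted p = 0.76 and 0.106).

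Of 38 tested p53 targets 3 rose and 0 fell, with a median of 0.269, beside 0.39% higher and 2.1% lower over all tested genes. Zmat3, an RNA-binding p53 target, rose from 10.9, 8.63 and 12.4 CPM to 52.99, 36.1 and 49.3 CPM (2.12 ± 0.26, adjusted p = 0.00506), and held without any single library. Eda2r, a receptor of the tumor necrosis factor family, rose from 3.24 to 4.39 CPM to 7.53 to 12.1 CPM (1.39 ± 0.30, adjusted p = 0.0395, and up to 0.153 without wild type 2). Cdkn1a was the other. Members of the list went both ways, with 25 positive and 13 negative. At an unadjusted p under 0.05, 9 were higher and 4 lower, beside 6.17% and 10.5% of all tested genes. DESeq2 called 7 higher and 1 lower, beside 288 and 752 of 15044 genes over all. By limma-voom 8 and 2 were called, beside 687 and 1128 of 14086. The summed level was 1300 to 1350 CPM in wild type and 1530 to 1540 CPM in Mx1-Cre libraries. Mdm2, the p53 ligase and its classical target, was at 92.5 to 102 CPM and at 107 to 120 CPM (0.24 ± 0.12, adjusted p = 0.331), and Plk2 and Fas had negative log2 fold changes of -0.84 ± 0.26 and -0.85 ± 0.34 (adjusted p = 0.135 and 0.239). Trp53 itself, which encodes p53, was at 554 to 637 CPM and at 559 to 614 CPM, with a log2 fold change of -0.01 ± 0.13.

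The transcripts of reported HUWE1 substrates did not pass the test in any of the 23 measured cases by edgeR. At an unadjusted p under 0.05, 3 were higher and 0 lower, beside 6.17% and 10.5% of all tested genes. DESeq2 called 2 of them higher and limma-voom 3, where they called 288 of 15044 and 687 of 14086 genes higher over all. In this list 18 members had a positive log2 fold change, with a median of 0.147. Its summed level was 3810 to 3930 CPM in wild type and 4590 to 4780 CPM in Mx1-Cre libraries. The list includes Top2a, whose values are given below. Myc was at 746, 634 and 546 CPM in wild type and at 670, 822 and 704 CPM in Mx1-Cre libraries (0.19 ± 0.15, adjusted p = 0.6). Mycn overlapped at 91.1 to 117 and 87.5 to 145 CPM, and Mcl1 at 148 to 204 and 121 to 213 CPM. HUWE1 acts on the proteins, which RNA-seq does not measure.

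**Figure D3:**
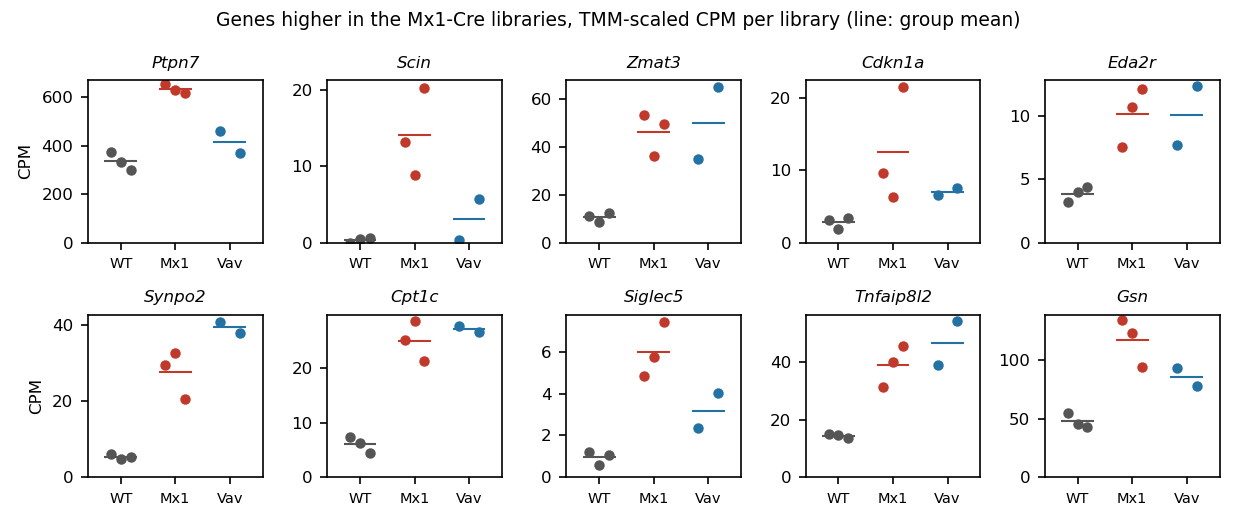
Each panel shows 1 gene, with its level in CPM on a vertical axis that starts at 0 and the wild type (WT), Mx1-Cre (Mx1) and Vav-Cre (Vav) libraries as points, the line being the group mean. In all 10 genes the Mx1-Cre points lie above every wild type point, and Cdkn1a and Scin show the widest spread within the Mx1-Cre group.

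Scin encodes scinderin, an actin-severing protein, and was nearly absent in wild type at 0, 0.43 and 0.59 CPM against 13.2, 8.92 and 20.3 CPM in Mx1-Cre libraries (5.36 ± 1.05, adjusted p = 0.0276). Gsn encodes its relative gelsolin and rose from 54.9, 45.3 and 42.5 CPM to 134, 123 and 93.6 CPM (1.29 ± 0.17, adjusted p = 0.00639). Synpo2, an actin-bundling protein, rose from 4.73 to 6.21 CPM to 20.7 to 32.7 CPM (2.34 ± 0.22, adjusted p = 0.00199). Cpt1c, a brain form of carnitine palmitoyltransferase, rose from 4.54 to 7.36 CPM to 21.4 to 28.6 CPM (2.04 ± 0.23, adjusted p = 0.0041). Siglec5, a sialic acid receptor of myeloid cells, rose from 0.59 to 1.22 CPM to 4.82 to 7.42 CPM (2.62 ± 0.42, adjusted p = 0.0132), and Tnfaip8l2, a restraint of immune activation, from 13.6 to 15.2 CPM to 31.5 to 45.7 CPM (1.43 ± 0.20, adjusted p = 0.00767). Gsn, Synpo2 and Cpt1c stayed called without any single library, whereas Scin, Siglec5 and Tnfaip8l2 reached 0.127, 0.074 and 0.0509 without wild type 2 or 3. In both Vav-Cre libraries Synpo2 (40.8 and 37.9 CPM) and Cpt1c (27.7 and 26.6 CPM) were also above every wild type library. The same held for Gsn (92.6 and 77.9 CPM), Tnfaip8l2 (39.1 and 54.3 CPM) and Siglec5 (2.35 and 4.03 CPM). It did not hold for Scin (0.39 and 5.70 CPM).

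Among the abundant genes that rose, changes were small. Ptpn7, a phosphatase of blood cells that acts on MAP kinases, rose from 300 to 376 CPM to 617 to 653 CPM (0.91 ± 0.13, adjusted p = 0.0103). H2afy, which encodes the histone variant macroH2A1, rose from 583 to 666 CPM to 904 to 1013 CPM (0.60 ± 0.11, adjusted p = 0.0255). Brd3, a reader of acetylated histones, rose by 0.66 ± 0.12 log2 (adjusted p = 0.0249), and Fubp1, which binds an element upstream of MYC, by 0.61 ± 0.12 (adjusted p = 0.027). Ptbp3, a splicing regulator, and Lgals9, galectin-9, rose by 0.55 ± 0.11 and 0.54 ± 0.12. The call of each of these 6 genes was lost without wild type 2 (adjusted p 0.066 for Ptpn7 and 0.129 for H2afy). The abundant genes that fell included Mmrn1, Mpo, Ifitm1, Alox5ap and Lsp1. Alox5ap, needed for leukotriene synthesis, fell from 280 to 354 CPM to 195 to 213 CPM, and Lsp1, an actin-binding leukocyte protein, from 204 to 286 CPM to 105 to 138 CPM, and both calls were lost without wild type 2 (adjusted p = 0.141 and 0.0693).

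Nearly all genes of cell division had a higher fitted level in the Mx1-Cre libraries, though the edgeR fit of all 8 libraries called none of them. Of 60 genes of mitosis, 59 had a positive log2 fold change, with a median of 0.513, and edgeR called 0. Of 52 genes of DNA replication all 52 were positive, with a median of 0.376, and edgeR again called 0. For comparison, 51.3% of all tested genes were positive. At an unadjusted p under 0.05, 32 mitosis genes and 22 replication genes were higher, where 6.17% of all tested genes were. In 48 mitosis genes and 34 replication genes every Mx1-Cre library was above every wild type library, which held for 10.9% of all tested genes. DESeq2 called 7 of the mitosis genes and 10 of the replication genes, beside 288 of 15044 genes called higher over all. By limma-voom 32 and 17 were called, beside 687 of 14086. The edgeR count depended on the Vav-Cre libraries in the fit: without either one 17 mitosis genes were called, and with only the 6 libraries compared 18 were.

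The summed level of the mitosis list was 6961, 6920 and 7074 CPM in wild type libraries and 10480, 9178 and 10666 CPM in Mx1-Cre libraries. That of the replication list was 8731, 9064 and 8472 CPM and 11501, 11435 and 11300 CPM. The 2 Vav-Cre libraries lay far apart, 1 above and 1 below wild type, at 8947 and 4689 CPM for mitosis and 9574 and 6480 CPM for replication. Top2a, the topoisomerase that untangles chromosomes, was at 674, 592 and 602 CPM in wild type and at 1109, 962 and 924 CPM in Mx1-Cre libraries (0.68 ± 0.22, adjusted p = 0.145). Mki67, which encodes the proliferation antigen Ki-67, was at 599, 576 and 646 CPM and at 1058, 796 and 1099.9 CPM (0.70 ± 0.23, adjusted p = 0.158). Kif22, a chromosome-binding kinesin, was at 128 to 129 CPM and at 198 to 213 CPM (0.66 ± 0.19, adjusted p = 0.108), and Ect2, an activator of cytokinesis, at 57.7 to 71.1 CPM and at 101 to 133 CPM (0.87 ± 0.28, adjusted p = 0.149). None of these 4 overlaps between groups, and none was called.

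Mitotic genes share promoter letters that these members display. The cell cycle genes homology region (TTTGAA) is bound by the DREAM complex and MuvB, which silence such genes in quiescent cells, and the CCAAT box by NF-Y, which activates them. In the RefSeq promoter windows of build GRCm38.p6, from 250 bases before to 50 after a gene's start and searched on both strands, TTTGAA was found in 35 of 48 mitosis genes with an entry (72.9%), in 12.2% of tested genes and in 18.1% of all 27025 promoters. CCAAT was found in 75.0%, 38.7% and 37.9%. Both together were found in 62.5% of the mitosis genes and in 7.12% of all promoters. The sequences below are the 200 bases before the start in the 4 mitosis genes with both elements and the smallest p, chosen after their values were seen. They are shown because these members share both elements, and capitals mark each match to either element or to its complement.
Kif22 (chr7:127042421-127042620, minus strand): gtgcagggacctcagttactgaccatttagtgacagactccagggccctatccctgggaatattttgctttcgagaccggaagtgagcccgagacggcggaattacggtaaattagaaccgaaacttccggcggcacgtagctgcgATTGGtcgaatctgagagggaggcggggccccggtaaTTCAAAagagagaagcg
Top2a (chr11:99024190-99024389, minus strand): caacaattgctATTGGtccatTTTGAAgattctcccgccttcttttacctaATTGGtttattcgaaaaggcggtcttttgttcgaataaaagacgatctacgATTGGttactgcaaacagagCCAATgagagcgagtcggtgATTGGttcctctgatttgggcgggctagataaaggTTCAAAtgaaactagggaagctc
Ect2 (chr3:27153879-27154078, minus strand, the first of 2 starts): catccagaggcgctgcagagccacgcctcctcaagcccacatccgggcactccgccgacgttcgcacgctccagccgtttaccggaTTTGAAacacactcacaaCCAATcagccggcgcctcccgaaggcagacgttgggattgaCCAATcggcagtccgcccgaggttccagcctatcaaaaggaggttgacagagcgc
Mki67 (chr7:135716380-135716579, minus strand): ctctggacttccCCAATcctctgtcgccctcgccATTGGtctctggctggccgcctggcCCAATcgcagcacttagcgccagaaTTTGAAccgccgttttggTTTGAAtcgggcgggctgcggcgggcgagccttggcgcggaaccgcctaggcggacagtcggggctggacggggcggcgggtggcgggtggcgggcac

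The mitosis genes with and without TTTGAA had like medians, 0.505 over 35 and 0.492 over 13 genes. For DNA replication, where E2F factors drive the genes at the onset of S phase, an E2F element (TTTCCCGC or TTTGGCGC, both strands) was found in 12 of 42 promoters with an entry (28.6%), in 2.97% of the promoters of tested genes and in 1.63% of all promoters, and the medians with and without it were 0.376 and 0.389. A match is a description of the letters and no evidence of binding.

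The rule that names the largest changes brought in further genes. Among the falls, Slc16a12, a creatine transporter gene, went from 14.7, 8.27 and 10.7 CPM to 0.77, 0.04 and 0.07 CPM (-5.19 ± 0.82, adjusted p = 0.0132). Ocln, which encodes the tight junction protein occludin, fell from 6.87 to 12.8 CPM to 0.71 to 1.05 CPM (-3.45 ± 0.42, adjusted p = 0.00501). Zfp37 and Zfp612, zinc finger genes, had log2 fold changes of -3.41 ± 0.36 and -3.34 ± 0.45, Zan of -3.73 ± 0.46 and Lancl3 of -3.52 ± 0.49. The calls of Ocln, Zfp37, Zfp612, Zan and Lancl3 held without any single library, and that of Slc16a12 did not (0.055 without wild type 3). Fscn1, the actin bundler fascin, Sfrp1, a secreted Wnt antagonist, and Efna1, an ephrin, fell by 4.62 ± 1.02, 3.94 ± 0.85 and 3.69 ± 0.71 log2, and reached an adjusted p of 0.171, 0.155 and 0.1 without 1 library. Among the rises, Lmna, which encodes lamin A and C, and Akr1c12, an aldo-keto reductase gene, rose by 1.28 ± 0.27 and 1.23 ± 0.18 log2, with up to 0.149 and 0.0588 without 1 wild type library.

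**Figure D4:**
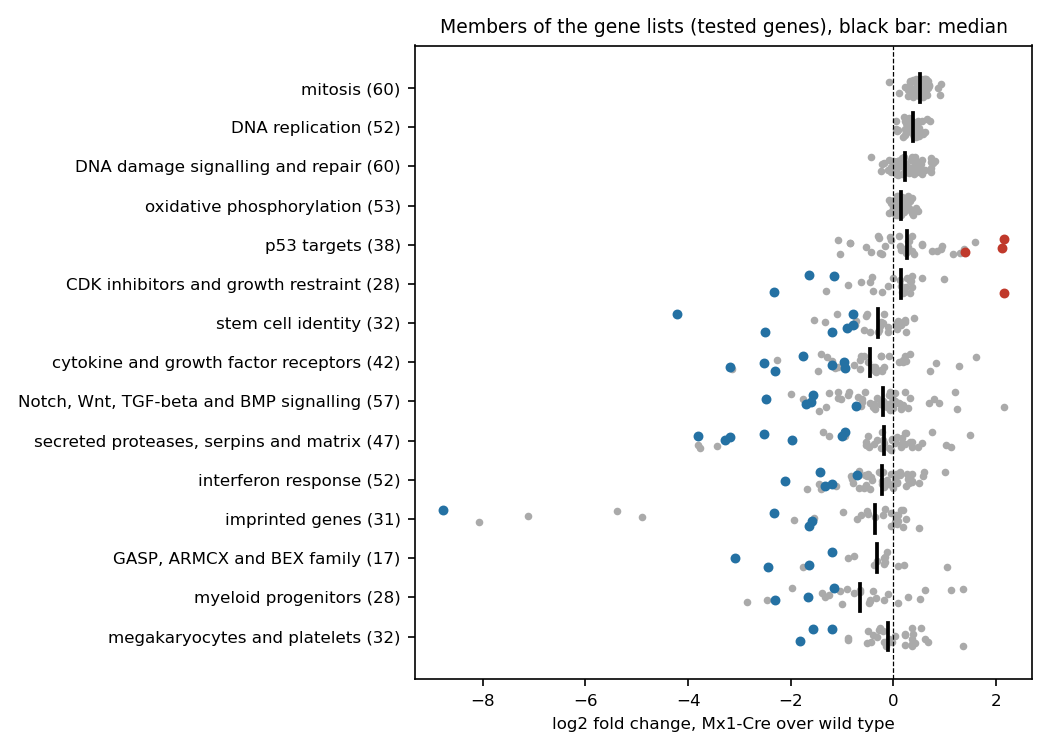
Each point is a tested member of a gene list (number of tested members in brackets), placed by its fitted log2 fold change, Mx1-Cre over wild type, with called members in red (rose) or blue (fell), others in grey and the list's median as a black bar. Mitosis and replication genes lie almost wholly to the right of 0 without a called member, whereas the called members of the stem cell, receptor, matrix and interferon lists lie to the left.

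Of 22 G1 cyclins, kinases and E2F factors 19 were positive, with a median of 0.259, of 60 DNA damage and repair genes 48 were (0.221), of 53 oxidative phosphorylation genes 48 were (0.154) and of 38 proteasome subunits 36 were (0.174). edgeR called 0 in each of these lists. At an unadjusted p under 0.05, 7, 16, 1 and 3 of their members were higher, beside 6.17% of all tested genes. DESeq2 called 2, 6, 0 and 1 higher, and limma-voom 6, 13, 0 and 2. These tools called 288 of 15044 and 687 of 14086 genes higher over all. Ribosome biogenesis genes were centred at a median of -0.00601, with 23 of 51 positive.

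Interferon-stimulated genes, which answer type I and type II interferons through dedicated transcription factors, are of interest in a line whose Cre is itself placed behind an interferon-responsive promoter. Of 52 tested, 5 fell and 0 rose, with a median of -0.224, beside 2.1% lower and 0.39% higher over all tested genes. Gbp3, a guanylate-binding protein of cell-autonomous immunity, was at 127, 112 and 73.0 CPM in wild type and at 48.0, 32.1 and 36.1 CPM in Mx1-Cre libraries (-1.43 ± 0.25, adjusted p = 0.0201). Ifit1, which recognises foreign RNA caps, was at 26.5, 39.5 and 33.2 CPM and at 15.9, 16.3 and 10.996 CPM (-1.20 ± 0.24, adjusted p = 0.0299). Ifitm1, an antiviral membrane protein, was at 189, 323 and 326 CPM and at 117, 98.6 and 115 CPM (-1.34 ± 0.28, adjusted p = 0.0387). Gbp9 and Oasl2 fell by 2.11 ± 0.37 and 0.70 ± 0.14 log2. In none of the 5 do the groups overlap, which holds for all 351 called genes and for 25.6% of all tested genes. None stayed called without wild type 2 (adjusted p 0.0941 for Gbp3, 0.141 for Ifit1 and 0.152 for Ifitm1), a fit that kept 58 of the 351 calls.

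The interferon list was not uniform. Mx1, the gene whose promoter drives the Cre, was low throughout at 3.96 to 6.76 and 0.43 to 3.37 CPM (adjusted p = 0.459). In all, 17 members were lower and 5 higher at an unadjusted p under 0.05, beside 10.5% and 6.17% of all tested genes. DESeq2 called 11 lower and 2 higher, beside 752 and 288 of 15044 genes over all. The higher members at that unadjusted p included Psmb9, Tap1 and Ifnar1, at log2 fold changes of 0.50, 0.60 and 0.30, and edgeR called none of them. Summed levels of the list overlapped, at 5800 to 6220 CPM in wild type and 5680 to 6030 CPM in Mx1-Cre libraries. The interferon-stimulated response element (GAAANNGAAA, both strands) was found in the promoter window of 20 of 37 list members with an entry (54.1%), in 3.1% of tested genes and in 3.49% of all promoters. Members with it had a median of -0.248 and those without it -0.227. Of the called members with an entry, Gbp3 and Ifit1 hold a match, and Oasl2 and Ifitm1 do not. The 200 bases before the start of these 2 genes are shown, with the matches in capitals. All of them lie on the opposite strand, so the capitals read as the complement, and those of Gbp3 overlap one another.
Gbp3 (chr3:142559844-142560043, plus strand, the first of 2 starts): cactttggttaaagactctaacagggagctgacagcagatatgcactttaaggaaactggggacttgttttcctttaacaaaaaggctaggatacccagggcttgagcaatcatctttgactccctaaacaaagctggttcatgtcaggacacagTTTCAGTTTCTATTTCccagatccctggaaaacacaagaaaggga
Ifit1 (chr19:34640689-34640888, plus strand): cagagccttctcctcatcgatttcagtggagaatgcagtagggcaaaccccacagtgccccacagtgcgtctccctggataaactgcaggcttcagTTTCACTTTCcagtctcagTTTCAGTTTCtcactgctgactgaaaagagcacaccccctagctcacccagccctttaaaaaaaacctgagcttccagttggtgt

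Taken as a family, a grouping made after the values were seen, guanylate-binding proteins fell in 5 of 11 tested genes (Gbp8, Gbp9, Gbp4, Gbp3 and Gbp10) and rose in none. The share of all tested genes that fell was 2.1%. Gbp8 fell from 31.1, 33.3 and 31.0 CPM to 13.2, 8.27 and 9.48 CPM (-1.62 ± 0.22, adjusted p = 0.00767) and held without any single library, while the other 4 did not. These genes are closely similar in sequence, so reads could be shared among them and single values are uncertain. Gbp2 and Gbp7 did not pass the test, with 126 to 155 and 365 to 493 CPM in wild type and 109 to 119 and 378 to 463 CPM in Mx1-Cre libraries. Gbp1 stood apart within the wild type group, at 47.0 and 86.7 CPM in wild type 1 and 2 and at 0 in wild type 3, as in all 3 Mx1-Cre libraries (adjusted p = 0.0571). Whatever separates wild type 3 from the other two at this gene was not tested.

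Imprinted genes are expressed from 1 parental copy, and many of them restrain or promote growth of stem cells. Among them, 4 of 31 fell and 0 rose, beside 2.1% and 0.39% of all tested genes. Besides Cdkn1c and Ndn these were Grb10, an adaptor that dampens insulin and KIT signalling, and the noncoding RNA Meg3. Grb10 was at 64.9, 84.0 and 122 CPM in wild type and at 31.5, 21.5 and 37.1 CPM in Mx1-Cre libraries (-1.59 ± 0.26, adjusted p = 0.0133). Meg3 was at 0.59, 6.43 and 13.3 CPM and at 0, 0.04 and 0 CPM (adjusted p = 0.025), so the wild type values themselves span a wide range. Peg3, at 0.53 to 0.59 CPM in wild type, had no count in any Mx1-Cre library and was not called (adjusted p = 0.0571). Without Mx1-Cre 1 the calls of Grb10 and Meg3 were lost (adjusted p = 0.0618 and 0.106).

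The GASP, ARMCX and BEX genes are neighbours on the X chromosome, as is Huwe1 at a distance, and encode proteins that bind receptors or mitochondria. Of 17 tested, 4 fell and 0 rose, beside 2.1% lower and 0.39% higher over all tested genes. Gprasp2, a sorting protein of G protein-coupled receptors, had the smallest p of all genes. It was at 37.9, 39.1 and 46.7 CPM in wild type, at 5.59, 4.50 and 4.44 CPM in Mx1-Cre libraries and at 8.34 and 8.52 CPM in Vav-Cre libraries (Mx1-Cre over wild type -3.09 ± 0.20, adjusted p = 0.000227). Gprasp1 fell from 135 to 165 CPM to 50.4 to 75.7 CPM (-1.20 ± 0.18, adjusted p = 0.0111). Bex1 and Bex2 fell by 1.64 ± 0.27 and 2.44 ± 0.53 log2. Gprasp2 held without any single library, whereas Gprasp1, Bex1 and Bex2 reached an adjusted p of 0.0568, 0.0816 and 0.187 without wild type 3 or, for Bex1, wild type 2.

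Further families were again grouped after the values were seen, and their counts stand beside 2.1% lower and 0.39% higher over all tested genes. Of 20 glutathione transferases, which conjugate toxic compounds, 4 fell and 0 rose. Gstm1 fell from 147 to 156 CPM to 65.5 to 80.1 CPM (-1.10 ± 0.14, adjusted p = 0.00639) and Mgst1 from 44.0 to 44.7 CPM to 13.6 to 19.3 CPM (-1.46 ± 0.19, adjusted p = 0.00548), and both held without any single library. Of 14 cathepsins, proteases of the lysosome, Ctsf, Ctsh, Ctsl and Ctss fell and 0 rose. Ctsf was at 28.4 to 30.1 CPM and at 9.09 to 11.7 CPM (-1.49 ± 0.21, adjusted p = 0.00989). The calls of Ctsh, Ctsl and Ctss were lost without wild type 2 (adjusted p = 0.066, 0.0777 and 0.0885). Both MAGE-D genes, Maged1 and Maged2, fell by 1.07 ± 0.22 and 1.06 ± 0.23 log2, with an adjusted p of up to 0.136 without Mx1-Cre 1 and 0.154 without wild type 3.

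Some transcripts were nearly lost altogether. With at least 30 counts in every library of 1 group and at most 3 in every library of the other, 9 genes were near absent in the Mx1-Cre libraries and 0 in wild type, and 7 of the 9 were called. Map1b, a microtubule-associated protein gene, had 151, 117 and 170 counts in wild type and 0, 0 and 3 in Mx1-Cre libraries, a ratio of 138 (95% counting interval 47.1 to 674). Mcoln3, a lysosomal channel gene, had 78, 116 and 74 counts and 0 in every Mx1-Cre library, so it was at least 84.7-fold lower, taking 3 counts over the group as the limit that a count of 0 allows. Slc19a3, a thiamine transporter gene, had 35, 62 and 76 counts and 0 in every Mx1-Cre library, at least 54.7-fold lower. The Vav-Cre libraries had 27 and 42 counts of Map1b, 19 and 0 of Mcoln3 and 28 and 49 of Slc19a3. Map1b and Slc19a3 stayed called without any single library, and Mcoln3 reached an adjusted p of 0.126 without wild type 2. Intervals and limits cover counting error only, since the labels name no molecular identifiers.

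Of 28 tested transcripts of committed myeloid progenitors, 3 fell and 0 rose, beside 2.1% and 0.39% of all tested genes. In this list 22 had a negative log2 fold change and the median was -0.653. Mpo, the myeloperoxidase gene of granulocyte progenitors, was at 367, 318 and 215 CPM in wild type and at 128, 70.2 and 84.0 CPM in Mx1-Cre libraries (-1.67 ± 0.25, adjusted p = 0.0103, and 0.0513 without wild type 2). Elane, the neutrophil elastase gene, was at 87.4 to 148 CPM and at 5.33 to 33.4 CPM, and missed the threshold (-2.46 ± 0.58, adjusted p = 0.0553). Csf3r and Gfi1, described above, were the other members that fell. Summed over the list, levels were 1353, 1228 and 1084 CPM in wild type and 726, 694 and 717 CPM in Mx1-Cre libraries. Cells of this kind carry CD48 and fall outside the sort gate, and whether their number in the sorted cells moved with the other results was not tested.

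**Figure D5:**
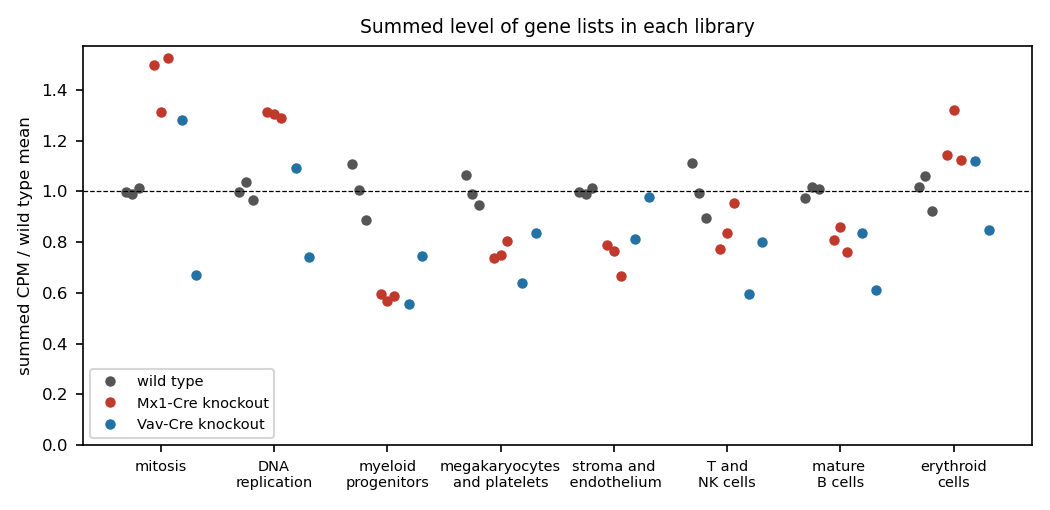
Each point is 1 library, with the summed CPM of a gene list divided by the mean of the 3 wild type libraries on a vertical axis that starts at 0. Mx1-Cre points lie above wild type for mitosis and DNA replication and below it for myeloid, megakaryocyte, stroma and B cell lists, and the 2 Vav-Cre points are far apart for mitosis.

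Lists of other cell types were summed in the same way. Summed levels of stroma and endothelium genes were 461 to 470 CPM in wild type and 310 to 366 CPM in Mx1-Cre libraries, with 1 of 22 tested members, Bgn, called, and those of mature B cell genes were 244 to 255 and 190 to 215 CPM. For B cells edgeR called 0 of 15, with 4 lower at an unadjusted p under 0.05, beside 10.5% of all tested genes. DESeq2 called 2 lower, beside 752 of 15044 genes, and limma-voom 3, beside 1128 of 14086. T and NK cell genes overlapped at 214 to 266 and 185 to 228 CPM, with 12 of their 27 genes at 0 in all Mx1-Cre libraries. These 12 had too few counts to be tested, at most 17 in any wild type library. Tbx21 among them had none in all 6 libraries, so the zeros do not show a loss. Mature neutrophil and monocyte genes overlapped at 744 to 1628 and 495 to 1199 CPM. Erythroid genes were at 6114 to 7036 and 7444 to 8764 CPM, with 0 of 31 called by edgeR or DESeq2 and 1 by limma-voom. At an unadjusted p under 0.05, 2 were higher, beside 6.17% of all tested genes. The alpha and beta globin genes Hba-a1, Hba-a2, Hbb-b1 and Hbb-b2 are listed at 0 in all 6 libraries. Mast cell and basophil genes were at 582 to 691 and 625 to 843 CPM, with 1 of 15 called lower (Cd63) and 0 higher. That list had a median log2 fold change of -0.585, with 10 members negative and 5 positive. Fcer1a, the alpha chain of the IgE receptor and a member of that list, was at 0.23, 0.20 and 0 CPM in wild type, 7.01, 14.9 and 7.49 CPM in Mx1-Cre libraries and 2.00 and 209 CPM in Vav-Cre libraries (Mx1-Cre over wild type adjusted p = 0.0684). Cpa3, a mast cell protease also found in early progenitors, was at 8.88 to 10.1 CPM and at 16.6 to 25.5 CPM (adjusted p = 0.0667). The part of these cell types in the falls above was not tested.

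The 2 Cre lines were compared with each other in the same fit, in which the wild type libraries help set the spread. Its 24 calls became 13, 5 or 3 without wild type 1, 2 or 3, 7, 20 or 8 without Mx1-Cre 1, 2 or 3, 412 or 13 without Vav-Cre 1 or 2, and 3 when only these lines were fitted. Slamf1 differed between the lines at 49.0, 53.6 and 58.1 CPM in Mx1-Cre and 105 and 108 CPM in Vav-Cre libraries (0.99 ± 0.14 log2, adjusted p = 0.0346). Procr, Prdm16 and Esam were at 60.4 and 73.7, 43.0 and 51.0, and 187 and 216 CPM in the Vav-Cre libraries, but the test of the difference from Mx1-Cre was not passed (adjusted p = 0.0817, 0.148 and 0.172).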

How the data were processed

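Total RNA of sorted mouse stem cells went through a SMARTer Ultra Low Input preparation and NEBNext adaptor ligation, without strand, per the labels' protocols. The submitters' processing notes name TopHat, SAMtools, HTSeq, edgeR and build mm9 without versions, and the annotation is not given in the sources used here. The authors deposited raw read counts per gene symbol, which were used as they stand, and a normalized table, which was not used. Without strand, overlapping and antisense genes cannot be told apart.

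All 8 libraries entered 1 edgeR 4.0.16 quasi-likelihood fit (R 4.3.3) by group, with TMM scaling and genes kept by filterByExpr (minimum count 10, minimum total 15), leaving 14086 of 23358 genes. P-values were adjusted by Benjamini-Hochberg over all tested genes, and each SE was derived from the fold change and its F statistic. The fitting script was tested on simulated counts. The fit was repeated with DESeq2 1.42.0, with quality-weighted voom in limma 3.58.1, with other scalings and filters, only the groups compared, a replicate block, a looser threshold and leaving out each library.

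Genes were named by a rule: fixed genes, the 15 largest rises and 20 largest falls among called genes with at least 5 CPM in the higher group, the 6 most abundant called genes each way, up to 4 called members of each list, and near-absent genes. Members and lists were chosen with earlier results of these data known. Gene families, further list members given with values, and the promoters shown were chosen after their values were seen. Promoter sequences are from RefSeq, build GRCm38.p6, and had an entry for 10327 of the tested genes. All 6 library pairs within the wild type and Mx1-Cre groups differed by more than counting noise (chi-square per degree of freedom 27.5 to 127). Some genes named by the rule are not reported here.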

Additional observations from a re-analysis of the deposited data

Results flagged for a closer look

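A set of 5 named genes differed between the Cre lines in the direct test, Vav-Cre minus Mx1-Cre, by edgeR's quasi-likelihood test. All 5 were higher in Vav-Cre libraries, while of the 24 genes that passed over all, 16 were higher and 8 lower there. Serpinf1, 2810468N07Rik and Slc19a3 were named for their low level in these same Mx1-Cre libraries. That choice favours a difference in this direction. Fgd5 was higher in Vav-Cre libraries by 2.43 ± 0.30 log2 (adjusted p = 0.0183), Serpinf1 by 1.79 ± 0.29 (0.0459), Slamf1 by 0.99 ± 0.14 (0.0346) and 2810468N07Rik, an unnamed transcript, by 2.85 ± 0.42. Slc19a3 had 0 counts in every Mx1-Cre library and 28 and 49 in Vav-Cre libraries, and its fitted difference of 8.25 depends on the prior count. The 2 Vav-Cre libraries are few, and the count of genes that pass this test moved widely with single libraries.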

How the results depend on the processing

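The 351 calls of Mx1-Cre against wild type became 1040 with DESeq2 (288 higher, 752 lower), 1815 with limma-voom (687 higher, 1128 lower), 575 with only the groups compared (139 higher) and 701 at an adjusted p under 0.1 (155 higher, 546 lower). Leaving out 1 library gave 58 to 565 calls, 6 to 134 higher and 52 to 431 lower, with the lowest counts without wild type 2. The 24 genes that differed between the Cre lines became 466 with DESeq2, 10 with limma-voom, 81 with no filter, 3 with only the groups compared, 76 at an adjusted p under 0.1 and 3 to 412 when 1 library was left out. The cause of these shifts was not tested. The labels do not say whether replicate numbers pair the samples. Deviations of same-numbered libraries correlated at -0.00163, 0.000727 and 0.129. This cannot settle it, since differently numbered libraries ranged from -0.177 to 0.163. With the replicate block, 235 genes were called, 33 higher and 202 lower, 220 of them among the 351, and 9 differed between the lines. No called gene changed sign under any setting run. All 351 were also called by DESeq2, 348 by limma-voom, 344 with DESeq2 size factors and 333 with library totals only. Depth limits the near-absent genes, whose ratios have wide counting intervals.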
